A study of Mus musculus with 20 samples.

Results

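The renin-angiotensin system genes described here were *Ren1*, *Agt*, *Ace*, *Agtr1a*, *Agtr1b*, *Enpep*, *Mme*, *Atp6ap2* and *Mas1*, 9 genes named by role out of 24411 in the count table, and they were read in the kidneys of 20 mice. Levels were compared between 4 groups of 5 mice and set against the weight of 1 kidney as a percentage of body weight (KBW). All mice, on a C57BL/6 background, carried floxed *Pkd2* alleles, the gene for polycystin-2, and all received doxycycline (DOX) at 50 mg per kg around the end of the fourth postnatal week, with kidneys taken at P125. Mutants (*Pkd2* fl/fl; *Pax8*rtTA; *TetO*Cre) carried both the DOX-dependent activator under the *Pax8* promoter and the Cre it switches on, whereas controls lacked 1 of these. The *Pax8* promoter drives the activator in tubule cells along the nephron. Single mice are named by sex, genotype and number, so that FM4 is a female mutant and MC4 a male control.

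The system controls blood pressure and salt balance. Renin, released by juxtaglomerular cells of the afferent arteriole, cuts angiotensinogen to angiotensin I, and angiotensin-converting enzyme cuts that peptide to angiotensin II, which acts on the AT1 receptor. Aminopeptidases and neprilysin cut these peptides further, and neprilysin makes angiotensin-(1-7), for which Mas is the receptor. In the kidney much of this machinery sits on the proximal tubule brush border, and cystic kidneys are known for an altered intrarenal renin-angiotensin system.

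*Pkd2* fell in the mutants, by 1.06 ± 0.12 (log2 fold change ± SE, both sexes together, edgeR adjusted p = 9.7e-06), from 193 to 332 CPM (counts scaled to a common library size) in the controls to 94.7 to 182 in the mutants, with no overlap. Each library held 11307741 to 19324073 counts. The library of FM4 stood apart, with the lowest total and with 14850 genes detected and 76 genes at a single count, against at least 16776 and at least 708 in the other mice, so results that rest on it are given without it too. All 14 proximal tubule markers were above 0 in every mouse. KBW was 0.599% to 0.896% in male controls, 1.22% to 2.15% in male mutants, 0.555% to 0.672% in female controls and 0.836% to 1.46% in female mutants.

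The stretches of 250 bases before the start of *Ace*, *Agt* and *Mas1* are shown because *Ace* and *Mas1* were called by genotype and *Agt*, the precursor of every peptide of the system, by sex in controls. They are RefSeq sequences on GRCm38.p6, printed along the strand of the gene, and capitals mark the TATA box letters TATAAA on either strand.
Ace (chr11:105967698-105967947, plus strand): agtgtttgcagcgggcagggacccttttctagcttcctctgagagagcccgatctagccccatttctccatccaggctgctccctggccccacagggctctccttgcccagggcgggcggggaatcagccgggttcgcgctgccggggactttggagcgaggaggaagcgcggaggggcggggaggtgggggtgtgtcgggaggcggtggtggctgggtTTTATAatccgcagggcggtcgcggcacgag
Agt (chr8:124569707-124569956, minus strand): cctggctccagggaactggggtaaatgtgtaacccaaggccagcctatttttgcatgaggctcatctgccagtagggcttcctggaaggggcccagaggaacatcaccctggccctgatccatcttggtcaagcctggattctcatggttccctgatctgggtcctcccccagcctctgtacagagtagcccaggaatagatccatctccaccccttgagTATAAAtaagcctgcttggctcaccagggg
Mas1 (chr17:12868144-12868393, minus strand): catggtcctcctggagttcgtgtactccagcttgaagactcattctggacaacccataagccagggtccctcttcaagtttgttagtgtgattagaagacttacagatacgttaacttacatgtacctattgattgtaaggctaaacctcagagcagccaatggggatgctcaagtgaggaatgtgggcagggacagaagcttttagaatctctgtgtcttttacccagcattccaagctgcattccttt
*Agt* held TATAAA at position -30 and *Ace* its reverse complement TTTATA at -31, counted from the start, while the *Mas1* stretch held neither. Of 32851 listed promoters of this length, 12.4% held TATAAA on either strand. AGAACA, a half-site of steroid receptors, or its reverse complement TGTTCT occurred in 16.1% of them and in none of these 3. The *Ace* stretch is that of the upstream of its 2 listed starts.

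**Figure D1:**
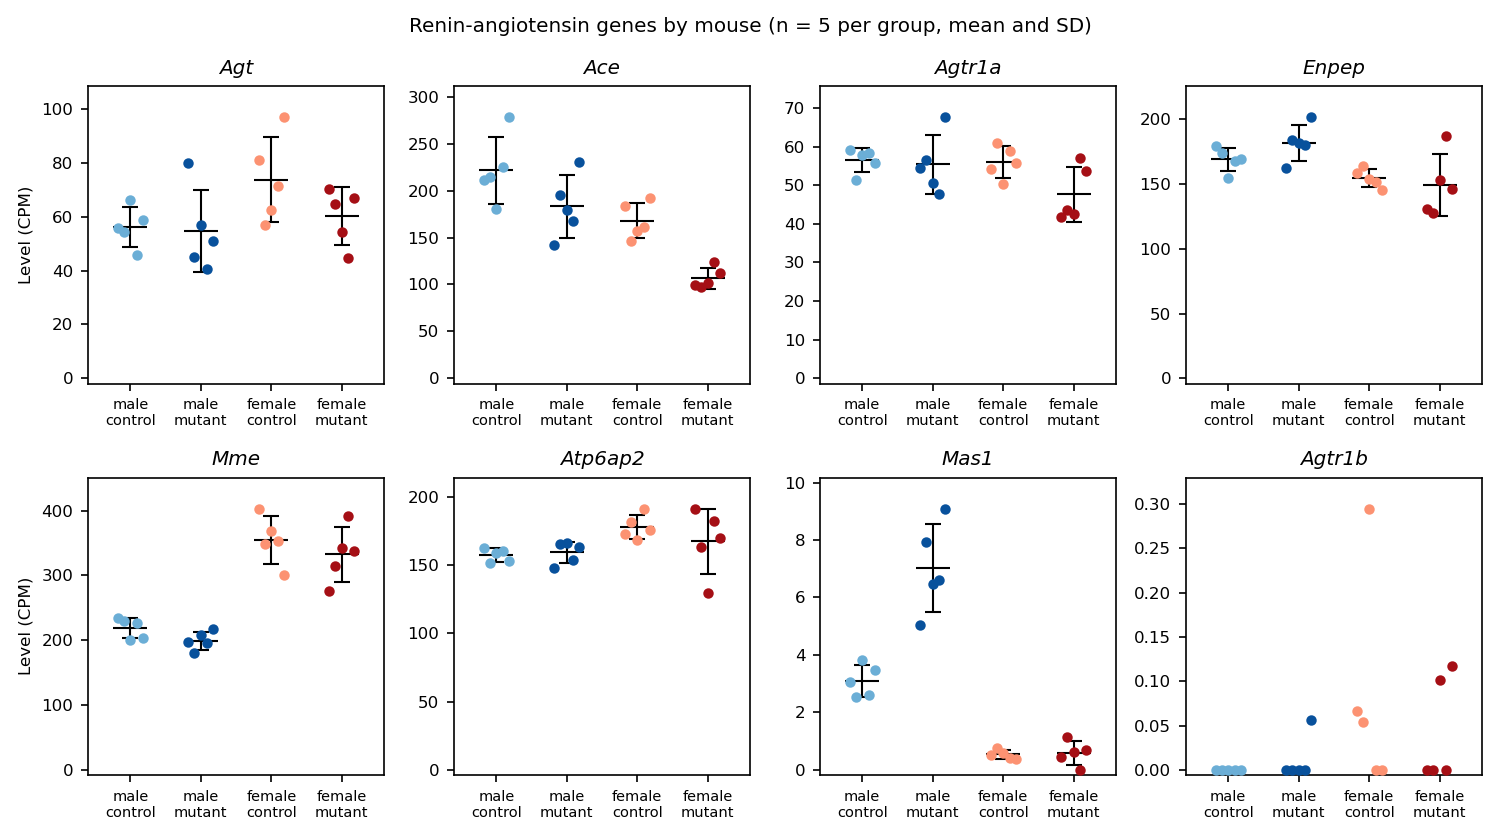
Level in CPM (y axis, from 0) of 8 of the 9 genes in each mouse of the 4 groups, with points for mice and, except for *Agtr1b*, bars for the mean and SD (n = 5); *Ren1* is left out because it was listed at 0 in all 20 mice. Male mutants sit at 5.03 to 9.09 CPM of *Mas1*, above every other group, and female mutants at 96.8 to 124 CPM of *Ace*, below every other group.

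*Ren1* (ENSMUSG00000070645.5, chr1:133350510-133360325, plus strand), the gene for renin itself, was listed at 0 in all 20 mice. *Ren2*, the near-identical second renin gene of some strains, also has a row in the table and was at 0 in all 20 mice as well. Renin mRNA is normally found in kidney, and the counting behind these rows, including how reads shared by the 2 near-identical genes were treated, is not given in the sources used here, so the 0 is not read as absence of renin mRNA. No level or difference of renin could be read from these counts. Genes of the cells that make and regulate renin were counted. *Akr1b7*, an aldo-keto reductase of renin cells, was also on a list of adrenal cortex markers. It stood at 1.68 to 3.41 CPM in male controls and 3.03 to 5.92 CPM in female controls (medians 2.67 and 3.65). Its medians in male and female mutants were 1.51 and 2.02 CPM. It fell by 0.78 ± 0.19 in mutants of both sexes together (log2 fold change ± SE, edgeR adjusted p = 0.00473). *Nos1*, the nitric oxide synthase of the macula densa, fell by 0.94 ± 0.22 (edgeR adjusted p = 0.00318). Its medians in controls and mutants were 1.48 and 0.792 CPM in males and 2.83 and 1.37 CPM in females. Neither fall was called within a sex. In males and females *Akr1b7* changed by -0.72 and -0.83 (edgeR adjusted p = 0.0727 and 0.125). *Nos1* changed by -0.72 and -1.12 (edgeR adjusted p = 0.0966 and 0.0884). The other 5 of the 7 juxtaglomerular genes were not called with both sexes together, against 15.9% of all genes called. They did not share a direction. *Gja5*, *Gja4* and *Adrb1* stood at -0.29, -0.19 and -0.57, and *Ptger4* and *Ptgs2* at 0.61 and 0.34 (log2 fold changes, edgeR adjusted p of 0.0358 to 0.593). In 4576 of the 24411 rows, no mouse had a count.

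Per kilobase of exon (GENCODE vM21 on GRCm38, the build of the files), *Atp6ap2* had the highest level of the 9 genes, at 63.3 ± 5.67 CPM per kb (mean ± SD, 20 mice). It encodes the (pro)renin receptor, which is also an accessory subunit of the vacuolar proton pump. *Enpep* followed at 34.8 ± 4.04, *Agt* at 32.4 ± 7.42 and *Ace* at 32.1 ± 9.27, and these neighbours did not differ beyond their spread. *Mme* stood at 23.9 ± 6.51 and *Agtr1a* at 19.4 ± 2.34 CPM per kb, and *Mas1* at 1.07 ± 1.08. The order of the middle genes was not the same in each group: in female mutants *Ace* stood at 20.2 ± 2.12 CPM per kb, below *Mme* at 28.8 ± 3.64, whereas in male controls it stood at 42.0 ± 6.73, above *Mme* at 18.9 ± 1.34 (n = 5 each).

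To ask which genes moved with loss of *Pkd2*, each sex was tested on its own and then both sexes together, mutants against controls, with litter as a covariate. A gene was called at an adjusted p under 0.01, over all genes tested. With both sexes together 1 of the 7 genes tested was called, and it was lower (*Ace*), while 15.9% of all 14191 genes were called. In males 1 of 7 was called, higher (*Mas1*), against 8.46% of all genes. In females edgeR called 0 of 7, against 0.637% of all genes. An unadjusted p under 0.05 was found there for 1 of 7 (*Ace*) and for 2979 of all 14439 genes. DESeq2 called 1 of 7 in females (*Ace*), and its share over all genes is not given here. The median log2 fold change of the 7 was -0.11, 0.01 and -0.07 in these comparisons, beside -0.0117, -0.00202 and -0.00285 over all genes.

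*Ace* (ENSMUSG00000020681.14, chr11:105967945-105989964, plus strand) encodes angiotensin-converting enzyme, found on endothelium and on the proximal tubule brush border. In the male controls its levels were 211, 215, 180.4, 225 and 278 CPM, and in the male mutants 142, 196, 179, 168 and 231 CPM. In the female controls they were 184, 146, 157, 162 and 192 CPM, and in the female mutants 99.5, 96.8, 102, 124 and 112 CPM. Every female mutant lay below every female control, while the male groups overlapped.
With both sexes together *Ace* fell by 0.47 ± 0.08 (log2 fold change ± SE, 1.39-fold, edgeR adjusted p = 0.000316), and leaving out each mouse in turn gave adjusted p-values of 4.59e-05 to 0.000978. Within sexes the change was -0.30 ± 0.09 in males and -0.63 ± 0.10 in females (edgeR adjusted p = 0.0374 and 0.0109), neither past the threshold. Leaving out each mouse in turn gave -0.23 to -0.40 in males (adjusted p of 0.00438 to 0.165) and -0.56 to -0.70 in females (0.00162 to 0.0501). The threshold was passed only without MM2 in males and only without FM4 in females, at the far end of each range. DESeq2 (adjusted p = 1.97e-06) and 3 other settings also called the female change. In litter A, litter B and litter C the log2 difference was -0.27, -0.37 and -0.27 in males and -0.88, -0.54 and -0.77 in females. In males these set 2 mutants against 3 controls, 2 against 1 and 1 against 1. In females they set 1 against 1, 3 against 3 and 1 against 1. The values of *Mas1* by litter in males rest on the same mice.
In whole kidney RNA, fewer cells that express a gene and less RNA per cell cannot be told apart. Of 14 proximal tubule markers 1 was called lower with both sexes together and none higher, with 7 at an unadjusted p under 0.05 and a median log2 fold change of -0.19. Of 8 endothelial markers edgeR called none, with 7 at an unadjusted p under 0.05 and a median of -0.16. These 7 did not share a direction. *Kdr*, *Ehd3*, *Tek* and *Flt1* stood at -0.34, -0.30, -0.27 and -0.21, and *Pecam1*, *Cdh5* and *Eng* at 0.32, 0.31 and 0.25 (log2 fold changes). Over all 14191 genes, 5346 had an unadjusted p under 0.05 in this comparison. The summed level of the proximal tubule markers was 13399 to 14916 CPM in female controls (median 14613) and 8539 to 16426 CPM in female mutants (median 10283), and that of the endothelial markers 511 to 612 (median 576) and 434 to 582 CPM (median 516). No marker of either list was at 0 in any mouse, and their part in the change of *Ace* was not tested.

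*Mas1* (ENSMUSG00000068037.11, chr17:12841079-12868143, minus strand) encodes the receptor for angiotensin-(1-7). Its levels were 3.07, 2.54, 3.83, 2.60 and 3.47 CPM in the male controls and 5.03, 7.93, 6.48, 6.60 and 9.09 CPM in the male mutants. Every male mutant lay above every male control. In females the controls had 0.527, 0.763, 0.589, 0.417 and 0.380 CPM and the mutants 0.454, 1.14, 0.607, 0 and 0.705 CPM, which overlapped, with the 0 in FM4.
In males *Mas1* rose by 1.18 ± 0.18 (log2 fold change ± SE, 2.27-fold, edgeR adjusted p = 0.0019). In litter A, litter B and litter C it differed by 1.00, 1.29 and 1.36. The call was lost without MC4 (log2 fold change 1.14, adjusted p = 0.0152) and when all 20 mice shared 1 fit (1.16, adjusted p = 0.0231). In females the change was 0.17 ± 0.61 (edgeR adjusted p = 0.921). It was 0.48 without FM4 (adjusted p = 0.432) and turned to -0.23 without FM2 (adjusted p = 0.905), the lowest and highest female mutants. With both sexes together it was 0.82 ± 0.29 (edgeR adjusted p = 0.0436), and without FM4 it passed the threshold, at 0.96 (adjusted p = 0.000738).

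The reads given to *Mas1* may not all be its own. *Airn*, a long noncoding RNA on the plus strand (chr17:12741311-12860136), runs through chr17:12841079-12860136 of *Mas1*, which holds 2290 of the 2620 exon bases of *Mas1*, or 87.4%. In GENCODE vM21 no exon of *Airn* lies on an exon of *Mas1* (0 shared bases). By that annotation these *Mas1* exon bases are intronic in *Airn*, and only unspliced *Airn* RNA would give reads on those *Mas1* exons. The annotation and the strand use of the counting are not given in the sources used here, and that annotation may differ. Without the strand, reads of unspliced *Airn* cannot be told apart from those of *Mas1*. *Airn* had 9.88, 11.1, 14.9, 9.25 and 9.58 CPM in the male controls and 16.9, 19.9, 19.4, 12.1 and 24.7 CPM in the male mutants, and it rose too, by 0.82 ± 0.17 (log2 fold change ± SE, edgeR adjusted p = 0.00807). In the females it stood at 3.10 to 5.24 CPM in controls and 2.57 to 4.40 CPM in mutants.
Divided by *Airn*, *Mas1* was 0.288 ± 0.0514 in male controls and 0.389 ± 0.0957 in male mutants (SD, n = 5 each; exact two-sided permutation p = 0.0556, or 0.0741 adjusted over 4 comparisons), with overlap. The ratio in female controls was 0.147 ± 0.0578 (SD, n = 5), below male controls (exact permutation p = 0.00794, adjusted p = 0.0159). If reads were counted over exons as annotated in GENCODE vM21, the *Airn* level comes from outside the exon bases of *Mas1*. This ratio was chosen after the levels had been seen.

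**Figure D2:**
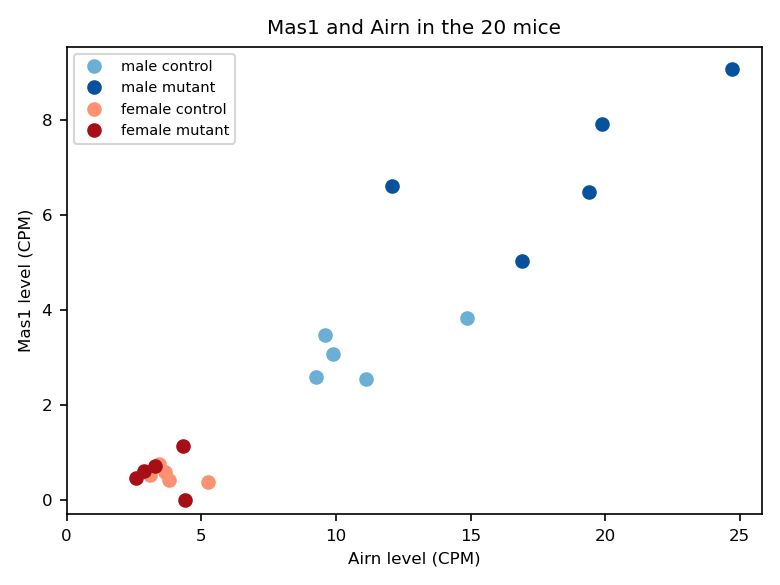
Level of *Mas1* (y axis, CPM) against its antisense neighbour *Airn* (x axis, CPM) in the 20 mice, with 1 point per mouse coloured by group. Male mutants lie at 12.1 to 24.7 CPM of *Airn* and 5.03 to 9.09 CPM of *Mas1*, and all females at or under 5.24 and 1.14 CPM.

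**Figure D3:**
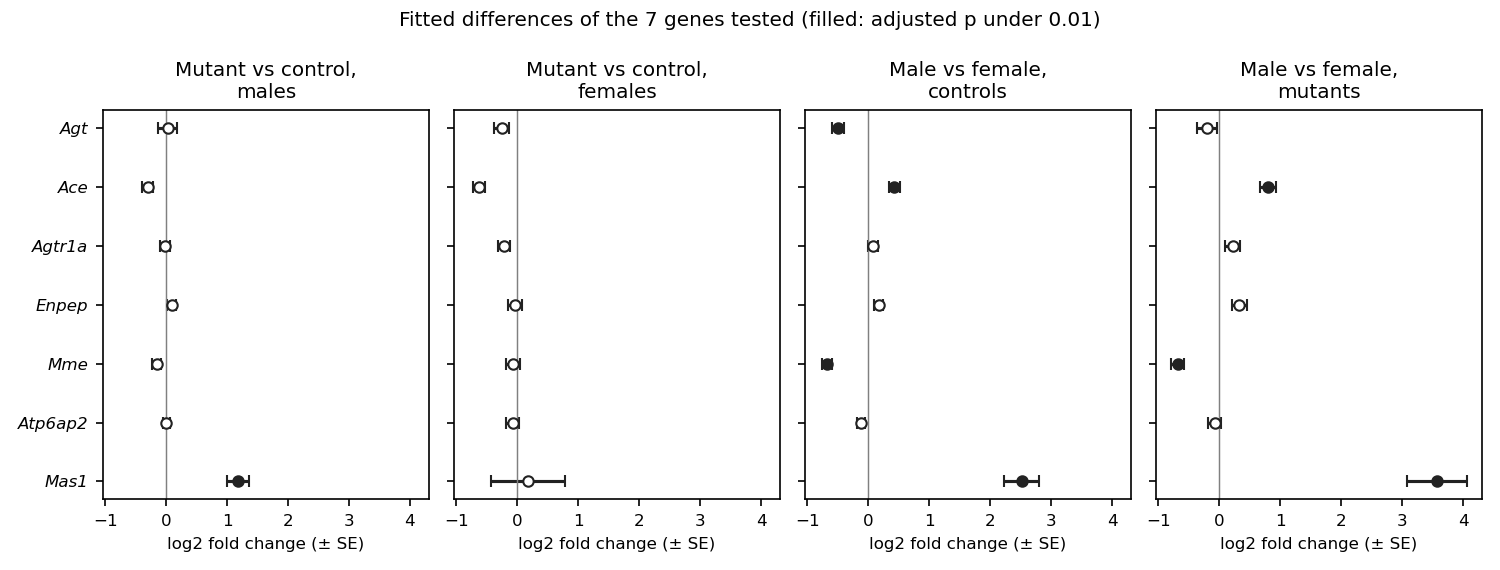
Fitted log2 fold change (x axis, points with SE bars) of the 7 genes tested, in the 2 comparisons of mutants with controls and the 2 of males with females; filled points have an adjusted p under 0.01. *Mas1* is the filled point at 1.18 in males, and the open *Ace* point in females, at -0.63, lies just short of the threshold.

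The other 5 genes tested were not called in any comparison of mutants with controls. *Agt* (ENSMUSG00000031980.9, chr8:124556534-124569706, minus strand), the precursor angiotensinogen, changed by 0.03 ± 0.15 in males and -0.25 ± 0.12 in females (log2 fold change ± SE, edgeR adjusted p = 0.923 and 0.286). *Agtr1a* (ENSMUSG00000049115.15, chr13:30336441-30382867, plus strand), the main AT1 receptor of rodent kidney, changed by -0.02 ± 0.08 and -0.22 ± 0.10 (adjusted p = 0.864 and 0.277, edgeR). Its lowest 3 values of all mice were those of FM1, FM3 and FM2, at 41.7, 42.5 and 43.5 CPM, but the other female mutants, FM4 and FM5, had 57.0 and 53.8 CPM and lay among the controls.
*Enpep* (ENSMUSG00000028024.14, chr3:129269175-129332720, minus strand), aminopeptidase A, which turns angiotensin II into angiotensin III, changed by 0.09 ± 0.07 in males and -0.03 ± 0.11 in females (edgeR adjusted p = 0.379 and 0.916). *Mme* (ENSMUSG00000027820.12, chr3:63241537-63386030, plus strand), neprilysin, which makes angiotensin-(1-7) from angiotensin I, changed by -0.15 ± 0.08 and -0.07 ± 0.12 (edgeR adjusted p = 0.185 and 0.807). *Atp6ap2* (ENSMUSG00000031007.2, chrX:12587801-12617049, plus strand) changed by 0.01 ± 0.06 and -0.07 ± 0.10 (edgeR adjusted p = 0.954 and 0.773).

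*Agtr1b* (ENSMUSG00000054988.9, chr3:20314473-20367177, minus strand), the second rodent AT1 receptor gene, had 12 counts over the 20 mice and at most 5 in a mouse, and was too low to be fitted. It had 0 counts in male controls, 1 in male mutants, 7 in female controls and 4 in female mutants. With 3 counts as the floor, a library allows a level of 0.155 to 0.265 CPM at a count of 0, by counting error only. This floor was taken from the unscaled library totals, whereas the other CPM values used normalized library sizes. No difference was detectable at this depth (two-sided exact permutation tests over all splits, p = 0.167 for males against females in controls and 0.444 in mutants, 1 and 0.643 for mutants against controls in males and females). The gene is near-identical to *Agtr1a*, so its counts are uncertain.

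Of 15 other genes of the system, a list of processing and degrading enzymes and receptors, 11 were tested. With both sexes together 1 of the 11 was called, lower, and 10 were not, against 15.9% of all genes called. It was *Klk1*, tissue kallikrein, a kinin-releasing protease of the distal tubule, which fell by 0.91 ± 0.15 (log2 fold change ± SE, edgeR adjusted p = 0.0002). It stood at 1544 to 2164 CPM in male controls and 641 to 1401 CPM in male mutants, and at 2044 to 2921 CPM in female controls and 747 to 1680 CPM in female mutants, with no overlap within either sex. Within sexes *Klk1* changed by -0.90 ± 0.18 in males and -0.91 ± 0.20 in females (edgeR adjusted p = 0.00653 and 0.0279). Only the change in males was called. *Agtr2*, *Cma1*, *Ctsg* and *Mrgprd* were too low to be fitted.

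To ask how the genes differed by sex, males were compared with females within each genotype. In controls 4 of the 7 genes tested were called, 2 higher in males (*Ace*, *Mas1*) and 2 lower (*Agt*, *Mme*), against 17.8% of all 14123 genes. In mutants 3 of 7 were called, 2 higher in males (*Ace*, *Mas1*) and 1 lower (*Mme*), against 5.42% of all 14416 genes. The median log2 fold change of the 7 was 0.08 and 0.22, beside -0.01 and -0.03 over all genes. The 3 calls in mutants did not all hold with each mouse left out. Without FM1, FM5 or MM5 none of them passed. The adjusted p-values were then 0.022, 0.0234 and 0.023 for *Ace*, 0.0123, 0.0159 and 0.0166 for *Mme* and 0.0103, 0.0106 and 0.0128 for *Mas1*. FM1, FM5 and MM5 were each the only mutant of their sex in their litter, which without them no longer compared the sexes. With each mouse left out, the log2 fold change was 0.73 to 0.87 for *Ace*, -0.63 to -0.75 for *Mme* and 3.34 to 3.94 for *Mas1*. Without MM3 or MM4 *Mas1* passed but *Ace* (0.0136 and 0.0101) and *Mme* (0.017 and 0.0106) did not, and in all of these fits the directions were kept.

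*Mme* was lower in males in both genotypes. The male controls had 234, 229, 200.4, 226 and 203 CPM and the female controls 403, 349, 368, 353 and 301 CPM. The male mutants had 196, 179, 208, 195 and 217 CPM and the female mutants 276, 314, 343, 391 and 338 CPM. No male reached the level of any female of its genotype.
The log2 fold change of *Mme* was -0.67 ± 0.08 in controls (SE, edgeR adjusted p = 5.45e-05) and -0.68 ± 0.11 in mutants (edgeR adjusted p = 0.00252). Taken litter by litter (A, B, C), it was -0.87, -0.66 and -0.57 in controls and -0.56, -0.79 and -0.64 in mutants. In controls these set 3 males against 1 female, 1 against 3 and 1 against 1. In mutants they set 2 against 1, 2 against 3 and 1 against 1. The other values by sex within litters rest on the same mice. Neprilysin is made by podocytes as well as by proximal tubule. Of 8 podocyte markers 7 were called lower in male than in female controls and 1 in mutants. In mutants 7 had an unadjusted p under 0.05, as had 4399 of all 14416 genes. The median log2 fold change of the podocyte markers was -0.63 in controls and -0.64 in mutants. Their summed levels were 276 to 429 CPM in male and 530 to 681 CPM in female controls, and 258 to 370 CPM in male and 401 to 501 CPM in female mutants, without overlap in either genotype and with no marker at 0. Of 14 proximal tubule markers 4 were called higher and 1 lower in male controls and 2 higher in male mutants. The part of these markers in the difference of *Mme* was not tested.

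*Mas1* was higher in males, by 2.52 ± 0.29 in controls (5.73-fold, SE on the log2 scale, edgeR adjusted p = 4.73e-05) and by 3.57 ± 0.49 in mutants (11.9-fold, edgeR adjusted p = 0.00122), or 3.34 without FM4 (adjusted p = 9.85e-05). No male overlapped any female. Taken litter by litter (A, B, C), it was 2.31, 1.96 and 2.83 in controls and 3.47, 3.77 and 3.47 in mutants. The antisense partner *Airn* was higher in males as well, by 1.46 ± 0.19 in controls (edgeR adjusted p = 0.000134) and 2.45 ± 0.24 in mutants (edgeR adjusted p = 0.00011). *Igf2r* (chr17:12682406-12769664, minus strand), in which *Airn* starts, was higher by 0.71 ± 0.10 and 0.90 ± 0.14 (edgeR adjusted p = 0.000336 and 0.00209).

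*Ace* was higher in males, by 0.43 ± 0.09 in controls (edgeR adjusted p = 0.00426) and 0.80 ± 0.13 in mutants (edgeR adjusted p = 0.00298). The controls overlapped and the mutants did not. Taken litter by litter (A, B, C), it was 0.13, 0.54 and 0.54 in controls and 0.74, 0.70 and 1.04 in mutants. In controls the call was lost without MC4 (0.34, adjusted p = 0.0788), without MC5 (0.37, adjusted p = 0.0195) or without FC5 (0.37, adjusted p = 0.0198). All 8 endothelial markers were called lower in male than in female controls, at 353 to 427 against 511 to 612 CPM summed (median log2 fold change -0.47). In mutants edgeR called 0 of the 8, with a median of -0.10. An unadjusted p under 0.05 was found there for 1 of the 8 and for 4399 of all 14416 genes. Of 14 proximal tubule markers 4 were called higher and 1 lower in male controls, and 2 higher in male mutants, with medians of 0.06 and 0.12. The part of either list in the difference of *Ace* was not tested.

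*Agt* was lower in males among controls. The male controls had 55.8, 54.3, 66.0, 45.7 and 58.7 CPM and the female controls 81.1, 56.9, 62.5, 71.4 and 96.9 CPM, with overlap. The log2 fold change was -0.49 ± 0.09 (SE, edgeR adjusted p = 0.00164), and litter by litter (A, B, C) it was -0.47, -0.47 and -0.72. The call was lost without the litter term (-0.35, adjusted p = 0.0542), with all 20 mice in 1 fit (-0.53, adjusted p = 0.0141) and without MC4 (-0.53, adjusted p = 0.0115). In mutants the difference was -0.20 ± 0.17 (edgeR adjusted p = 0.445). The male mutants had 79.9, 45.2, 56.9, 40.7 and 51.1 CPM and the female mutants 70.4, 64.8, 54.5, 44.5 and 67.0 CPM.

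*Agtr1a*, *Enpep* and *Atp6ap2* were not called by sex. *Atp6ap2*, which lies on the X chromosome, had 152 to 163 CPM in male controls and 168 to 191 CPM in female controls, without overlap, and a log2 fold change of -0.12 ± 0.06 (edgeR adjusted p = 0.186). The share of all genes without overlap between the sexes was not counted. In mutants *Atp6ap2* had 148 to 166 CPM in males and 130 to 191 CPM in females, with overlap. *Enpep* was at 0.17 ± 0.07 in controls and 0.33 ± 0.13 in mutants (edgeR adjusted p = 0.0872 and 0.106). *Agtr1a* was at 0.08 ± 0.08 and 0.22 ± 0.12 (edgeR adjusted p = 0.513 and 0.243). Of the 11 other genes of the system tested, 1 was called between the sexes in controls and 0 in mutants by edgeR. Of all genes, 17.8% and 5.42% were called. In mutants 4 of the 11 had an unadjusted p under 0.05, as had 4399 of all 14416 genes. The called gene was *Nln*, neurolysin, a peptidase that cuts angiotensin I, at 0.40 ± 0.09 (edgeR adjusted p = 0.00437).

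Whether the response to *Pkd2* loss differed between the sexes was tested by the sex-by-genotype term. By edgeR 0 of the 7 genes were called, and 0% of all 14820 genes, with 0 of 7 called by DESeq2. An unadjusted p under 0.05 was found for 618 of all 14820 genes and for 1 of the 7. That gene was *Ace*, at 0.36 ± 0.14 (male minus female change, log2, SE, edgeR adjusted p = 1). For *Mas1* the term was 1.04 ± 0.57 and for *Airn* 0.96 ± 0.27 (edgeR adjusted p = 1 and 0.747). The rise of *Mas1* was thus called in males and not in females, but the 2 changes were not shown to differ.

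To relate the genes to disease severity, log2 CPM was set against KBW within the 10 controls and within the 10 mutants, for the 7 genes whose mean reached 1 CPM, and p-values were adjusted over the 7 in each genotype. *Ace* rose with KBW in controls, with r = 0.84 (permutation p = 0.00192, adjusted p = 0.0134) and rho = 0.76 (permutation p = 0.0144, adjusted p = 0.101). With both measures centred within sex, r was 0.85 (exact permutation p = 0.00486, adjusted p = 0.034). Without MC5 and FC4, the mice farthest from the median KBW, r was 0.73 (permutation p = 0.0457, adjusted p = 0.32), and without MC5 alone it was 0.72 (permutation, adjusted p = 0.21), so the call rests on MC5, which had the highest KBW of the controls and the highest *Ace*. These tests left litter out, and in each sex the 1 control of litter C, MC5 or FC5, had both the highest KBW and the highest *Ace*. With sex and litter as covariates, an alternative chosen after the values were seen, r was 0.61 (permutation p = 0.148, adjusted p = 0.259), and the call was not kept. None of the other 6 genes had an adjusted p under 0.05 in controls.

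In mutants no gene had an adjusted p under 0.05. *Ace*, *Mas1* and *Mme* split the mutants by sex, so for these the relation is given only with both measures centred within sex. It was r = -0.64 for *Ace* (exact permutation p = 0.0745, adjusted p = 0.235), -0.16 for *Mme* (exact permutation p = 0.656) and 0.24 for *Mas1* (exact permutation p = 0.55). For *Agt* r was 0.34 (permutation p = 0.339) and rho 0.25 (permutation p = 0.496), and centred within sex r was 0.73 (exact permutation p = 0.0348, adjusted p = 0.235). Without MM1 and FM4, the mice with the highest and lowest KBW, r of *Agt* was -0.36 (permutation p = 0.367), and centred within sex it was 0.22 (exact permutation p = 0.656). The value of 0.73 was thus not kept without these mice, though leaving them out also narrows the range of KBW. With sex and litter as covariates, an alternative chosen after the values were seen, r of *Agt* was 0.81 (permutation p = 0.025, adjusted p = 0.175).
A fit across all genes with sex but not litter as a covariate called 0 of the 7 genes, and 0% of all 14416 genes, with 0 of 7 called by DESeq2. An unadjusted p under 0.05 was found for 2 of the 7 and for 3212 of all 14416 genes. The slope of *Agt* was 0.77 ± 0.24 per percentage point of KBW (log2, SE, edgeR adjusted p = 0.0909), and 0.48 without MM1 (adjusted p = 0.441). The slope of *Ace* was -0.47 ± 0.21 (edgeR adjusted p = 0.221).

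**Figure D4:**
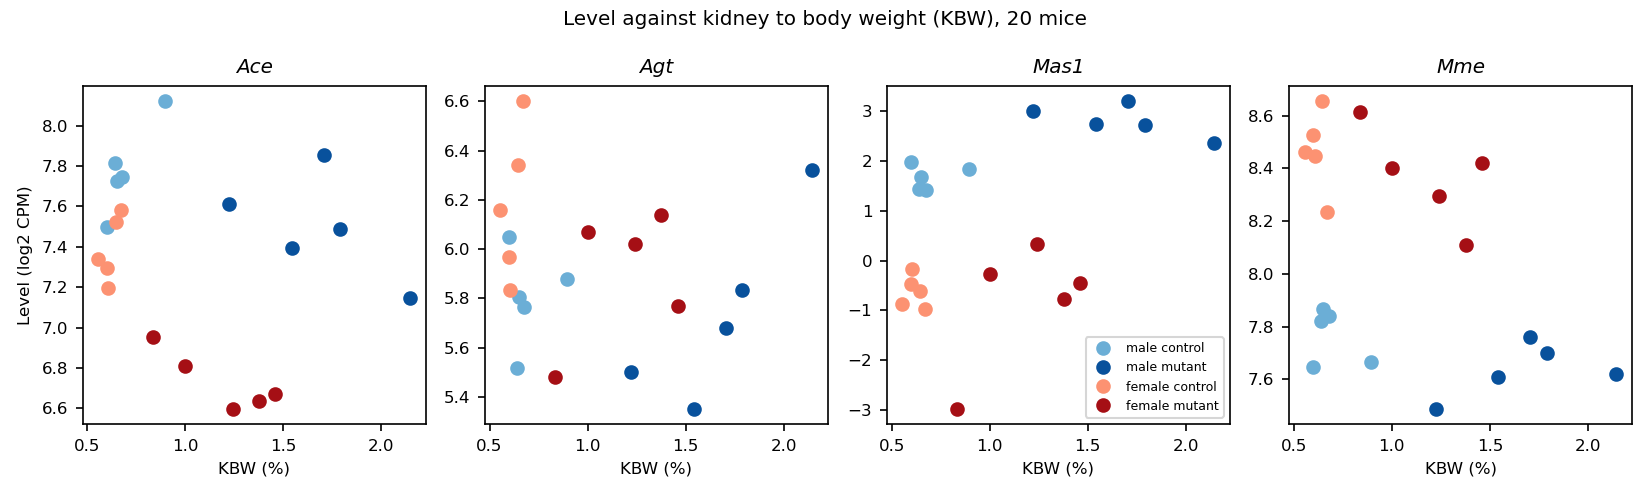
Level on the log2 CPM scale (y axis) of *Ace*, *Agt*, *Mas1* and *Mme* against KBW in percent (x axis) in the 20 mice, coloured by group. The control with the highest KBW, MC5 at 0.896%, is also the highest in *Ace*, and FM4, the mutant with the lowest KBW at 0.836%, is the lowest point for *Mas1*.

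The genes with patterns most like each gene were taken as the 3 with the highest Pearson r of log2 CPM over the 20 mice, among 13781 genes whose mean reached 1 CPM, as a description of mice that share litters, sexes and genotypes. For *Ace* they were *Tmco3*, *Agpat3* and *Furin*, at r = 0.96, 0.95 and 0.94. For *Mme* they were *Kdm6a*, *Acsl1* and *Rb1*, at r = 0.96, 0.95 and 0.95, and for *Enpep* they were *Rhot1*, *Ahcyl2* and *Gpam*, at r = 0.95, 0.95 and 0.93.
For *Mas1* they were *Hsd11b1*, *Slc41a2* and *Hrg*, at r = 0.95 each, but without FM4, whose *Mas1* is at 0, these ranked 38, 67 and 12. Lower likeness was found for *Agt* (*A4galt*, *Eva1b* and *Rsph9*, r = 0.87, 0.86 and 0.86), *Agtr1a* (*Atpaf1*, *Afg3l2* and *Hacd3*, r = 0.87, 0.87 and 0.86) and *Atp6ap2* (*Tvp23b*, *Atg10* and *Tiprl*, r = 0.85, 0.84 and 0.83). *Mme* and *Mas1* ran opposite to each other, at r = -0.91, with the sexes at the ends of both.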

How the data were processed

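RNA of 20 whole kidneys was sequenced, 1 library per mouse. Per the submitters' processing notes and the study's methods, the authors trimmed reads with fastp 0.23.2, aligned them to mm10 with STAR 2.7.10b and used R 4.3.0. The deposited values are whole-number counts per gene symbol, without normalization. The counting tool, annotation and strand setting are not given in the sources used here. Counts were analysed here in R 4.3.3 with edgeR 4.0.16: TMM scaling, filterByExpr, and the quasi-likelihood test with Benjamini-Hochberg adjustment over all genes tested, called under 0.01. Litter (A, B or C, from the labels) was a covariate, in the joint fits as groups of sex and litter, but not in the relations with KBW, where it entered alternatives only. CPM used TMM library sizes, except for the floors, which used unscaled totals, and log2 CPM used a prior count of 2. Single values and correlations were tested by exact permutation or 100000 resamples. Named genes were the 9 genes, other genes of the system that were called, *Pkd2* and the 3 most alike per gene. *Airn*, *Igf2r*, the called juxtaglomerular genes and the ratio of *Mas1* to *Airn* were added after values were seen. The members and lists were chosen with earlier results of these data known. Alternatives were DESeq2 1.42.0 size factors and Wald test, other filters, no litter term, all 20 mice in 1 fit and each mouse left out, and for KBW another measure, scale or set of mice. The procedure was tested on simulated data. Floors cover counting error only, whereas the SE of the quasi-likelihood fit and the SD include variation between mice. A gene of the list of other genes of the system is not reported here. Protein and peptide levels were not analysed here.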

Additional observations from a re-analysis of the deposited data

Results flagged for a closer look

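*Nos1*, the macula densa nitric oxide synthase, stood at 1.58 CPM in MM1, in a group whose lowest and median were 0.655 and 0.792 CPM. Its gap to the next mouse was 0.822 of the range of its group, above Dixon's critical value of 0.71 for 5 mice. It was the 1 such case in 60 groups (15 genes in 4 groups), and chance flags about 1 in 20 groups. MM1 had the highest KBW of all mice, 2.15%.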

How the results depend on the processing

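No paired analysis was possible because the labels number no mice across groups, and the replicate numbers used here only name mice. Of 1121 values of single genes under the alternatives, 1085 kept their direction, or stayed uncalled, and their side of the threshold, 26 lost a call, 10 gained one and none reversed a called direction. With both sexes together the genes called rose from 1 to 2 with DESeq2's Wald test and ranged from 1 to 2 with each mouse left out. In males they fell from 1 to 0 with all 20 mice in 1 fit and ranged from 0 to 2 with each mouse left out. In females they rose from 0 to 1 with DESeq2's Wald test, with no filter on low counts, with no litter term and with all 20 mice in 1 fit, and ranged from 0 to 1 with each mouse left out. The counts by sex ranged from 2 to 4 in controls and from 0 to 3 in mutants with each mouse left out. Without FM1, FM5 or MM5 in turn no gene was called by sex in mutants, with adjusted p-values for *Ace* of 0.022, 0.0234 and 0.023, and without MM3 or MM4 only *Mas1* was, with *Ace* at 0.0136 and 0.0101. For KBW in mutants the count ranged from 0 to 2, and in controls from 0 to 1, with each mouse left out. The genes that passed in mutants were *Mme* and *Mas1*, by r not centred within sex. Both split the mutants by sex, so a relation with KBW cannot be told apart from sex in these values. The count was 0 in controls with Spearman's rho, without the 2 mice farthest from the median KBW, with these left out and both measures centred within sex, and with sex and litter as covariates, the last 2 settings chosen after seeing the data. The cause of these shifts was not tested. Low counts limit *Mas1* in females and *Agtr1b* throughout.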
